A study of Mus musculus with 4 samples.

Results

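Alpha cells are the glucagon-secreting cells of the pancreatic islet. They were taken here from dissociated mouse islets that had been encapsulated in droplets by the inDrops method, in which each droplet's RNA receives a cell barcode and each molecule a unique molecular identifier (UMI). A barcode was called an alpha cell when it held at least 500 genes, under 20% mitochondrial counts, at least 10% of its UMIs from the glucagon gene Gcg, under 8% from the insulin genes Ins1 and Ins2 together, and under 3% each from the somatostatin gene Sst and the pancreatic polypeptide gene Ppy. This gave 699 alpha cells of 11114 barcodes, with 132 in mutant 1, 241 in mutant 2, 169 in control 1 and 157 in control 2. The measured values of these 5 hormone genes and of the mitochondrial genes chose the cells, so their levels are given as a description with no test.

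The mutant pools came from Atf4F/F; Ins1Cre mice and the control pools from Atf4F/F mice, all 2 months of age and, per the labels, without treatment. Both groups carry the floxed Atf4 allele, which Cre recombinase deletes, and only the mutants carry Ins1Cre, in which Cre is driven from the insulin 1 gene of beta cells. Each group has 2 samples, and every sample is a pool of islets of several mice of both sexes. A p-value here speaks of how 2 pools of a group differ, with mice inside a pool not resolved. The edgeR gene tests used below also draw each gene's variance towards that of other genes. Their p-values and standard errors (SE) therefore do not rest on the spread of that gene between pools alone. The tdT-positive and tdT-negative cells went into the same libraries, and human K562 cells were added at 10%. The labels do not give which part of Atf4 is deleted. Alpha cells were compared here as the neighbours of beta cells in which the gene was targeted.

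Glucagon is cut from proglucagon by the prohormone convertase Pcsk2 and released when glucose is low or when amino acids and adrenaline are high. Alpha cell identity is kept by transcription factors that include Irx1 and Irx2, while beta cell factors such as Mafa are silent. Atf4 is the transcription factor of the integrated stress response, which raises amino acid synthesis, amino acid import and tRNA charging when translation initiation is slowed. Immediate early genes and heat shock genes are groups that many cells switch on within minutes of a stimulus or of a protein-damaging stress.

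The 3 promoters below carry the genes that the account turns on: Gcg, which defines the cells, and Hspa1b and Hspb1, heat shock genes that were higher in mutant alpha cells. They are the 250 bases before the first listed transcription start in the RefSeq table of GRCm38.p6, at chr2:62483654-62483903 on the minus strand for Gcg, chr17:34959239-34959488 on the minus strand for Hspa1b and chr5:135887669-135887918 on the plus strand for Hspb1. Capitals mark matches on either strand to TATAAA, the core of a TATA box, in Gcg and to GAANNTTC, a core of the heat shock element that is its own reverse complement, in the others.
Gcg: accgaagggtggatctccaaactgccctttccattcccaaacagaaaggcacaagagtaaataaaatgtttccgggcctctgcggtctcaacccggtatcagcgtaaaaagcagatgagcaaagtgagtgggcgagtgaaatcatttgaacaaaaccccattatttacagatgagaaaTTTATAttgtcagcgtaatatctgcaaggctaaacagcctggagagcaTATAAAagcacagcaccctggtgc
Hspa1b: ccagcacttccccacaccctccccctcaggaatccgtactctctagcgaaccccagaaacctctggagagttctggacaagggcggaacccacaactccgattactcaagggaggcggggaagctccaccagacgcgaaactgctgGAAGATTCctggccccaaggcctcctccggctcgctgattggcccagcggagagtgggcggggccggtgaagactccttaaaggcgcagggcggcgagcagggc
Hspb1: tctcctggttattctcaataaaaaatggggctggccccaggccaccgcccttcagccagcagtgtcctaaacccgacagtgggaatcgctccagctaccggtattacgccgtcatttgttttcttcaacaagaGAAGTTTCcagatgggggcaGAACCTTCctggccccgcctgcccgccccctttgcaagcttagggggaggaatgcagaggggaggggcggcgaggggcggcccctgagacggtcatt
Counting the first listed start of each gene, GAANNTTC was found in 5 of the 12 heat shock genes of the list that had an entry (41.7%), beside 6.78% of all 27025 promoters of that length and 4.80% of the 6788 promoters of genes tested in alpha cells. Hspb1 held 2 matches, and Hspa1a, Hspa1b, Hspe1 and Dnaja1 held 1 each. Hspd1 held 1 at another of its listed starts and none at the first. TATAAA was found in 12.97% of all promoters. Such a match is a description of the letters and not of a factor's binding.

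The rule fixed at least 10% Gcg, and the levels above it are a description. Median Gcg was 26.9%, 27.3%, 25.05% and 26.2% of a cell's UMIs in mutant 1, mutant 2, control 1 and control 2. Gcg made up 24.1%, 25.8%, 24.2% and 24.2% of all alpha cell UMIs. The label was checked against alpha cell markers that the rule did not use. The transcription factors Irx1 and Irx2 and the carrier proteins Ttr and Gc were detected in the alpha cells of all 4 samples, at the levels given below. Mafa and Aqp3, markers of beta and PP cells, had no UMI in any alpha cell, but Mafa was seen in at most 0.374% of beta cells of a sample and Aqp3 in no PP cell, so these zeros do not check the label.

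Few barcodes lay near the limits of the rule. There were 30 alpha cells with 10 to 15% Gcg and 14 otherwise eligible barcodes with 5 to 10%, whose median depth was 1541 UMIs against 6116 in the first set. Only 4 alpha cells had 4 to 8% insulin, 10 barcodes just outside had 8 to 16%, and 91 outside had more, with a median of 27.1% insulin. The Ppy limit cut through a more gradual range, with 58 alpha cells at 1 to 3% and 30 barcodes outside at 3 to 10%. Alpha cells with 20% Gcg or more had a median of 3694 UMIs, fewer than those with 15 to 20%, which had 5917. The highest Gcg count in 1 cell was 3850, 3591, 3283 and 3744 in mutant 1, mutant 2, control 1 and control 2, and no value of any gene in these libraries was above 4093. The part of that ceiling in the Gcg shares was not tested.

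**Figure D1:**
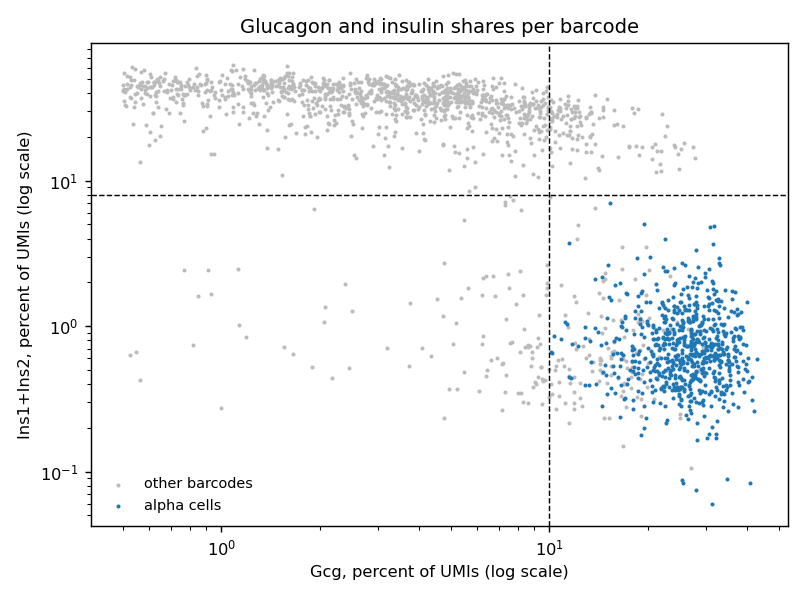
Share of UMIs from Gcg (horizontal, log scale) and from Ins1 and Ins2 together (vertical, log scale) in single barcodes with at least 0.5% Gcg, with the 10% and 8% limits as dashed lines and insulin drawn at no less than 0.05%. The 699 alpha cells form 1 group at the lower right, apart from the barcodes rich in both hormones above the insulin limit.

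The alpha cell sums held 906111 UMIs in mutant 1, 1161579 in mutant 2, 756671 in control 1 and 800799 in control 2, and median depth per cell was 4931, 3655, 3743 and 4328 UMIs. Median mitochondrial share was 1.71%, 1.51%, 2.46% and 1.47%, with control 1 above the others. Insulin RNA made up 0.663%, 0.568%, 0.953% and 0.842% of the alpha cell sums. In barcodes with endothelial or macrophage markers and little hormone RNA, which should make no insulin, it made up 0.895%, 0.859%, 1.49% and 1.08%. Insulin in alpha cells was thus below the level carried by free RNA in every library, and is not read as expression. The number of barcode sequences found in more than 1 library was 375, and 45 alpha cells carried one of these. Of those 45 cells, 2 carried a sequence that was called alpha in more than 1 library. Replicates were not copies of each other, since their counts differed by more than sampling noise, with a chi-square per degree of freedom of 2.23 between the mutants and 2.27 between the controls.

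Genes of the rule apart, Irx1 stood furthest above the other hormone cell types among genes with at least 50 CPM in every alpha sum. Irx1, an Iroquois homeobox factor (chromosome 13, 71957921 to 71963723, minus strand, GRCm38), stood at 158, 176, 230 and 267 counts per 1000000 UMIs of the sum (CPM) in the alpha cells of mutant 1, mutant 2, control 1 and control 2. Its highest level in any sum of beta, delta or PP cells was 15.8 CPM. All 4 alpha sums were thus far above every other sum, by at least 3.50 on the log2 scale with 5 CPM added. Cells with at least 2000 UMIs were thinned to 2000 UMIs and shallower cells were left out, which kept 121, 190, 131 and 124 alpha cells. Among these, Irx1 was seen in 27.3%, 30.5%, 35.1% and 41.9%. It was seen in at most 0.681% of thinned beta cells and in none of the 32, 25, 13 and 30 thinned endothelial or macrophage barcodes. Without thinning, and over all alpha cells, the shares were 56.1%, 44.8%, 54.4% and 62.4%.

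Of 2469 genes with at least 50 CPM in every alpha sum, 25 exceeded the highest of the other 3 hormone cell types by 1 or more on that log2 scale in all 4 samples, and 8 by 2 or more. These genes were chosen on the same cells, and no test is given for them. After Irx1 came Egflam, a matrix protein, with 62.9 to 75.8 CPM in alpha cells, at most 2.72 in other hormone cells and 5.17 to 29.1 in the endothelial or macrophage barcodes. Ttr, the thyroxine and retinol carrier transthyretin, had 16001 to 19995 CPM in alpha cells and 1494 to 2663 in PP cells, the next highest type.

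Genes of amino acid and fat handling were also among the 20 that stood apart most. Slc7a2, a transporter of arginine and lysine, had 505 to 618 CPM in alpha cells and at most 132 in other hormone cells. Lpl, lipoprotein lipase, had 811 to 1100 CPM in alpha cells and at most 272 elsewhere among hormone cells. Pdk4, which restrains pyruvate oxidation, had 117 to 178 CPM against at most 45.6, and Edn3, the peptide endothelin 3, had 130 to 176 CPM against at most 40.4. Others among the 20 were Higd1a, Wnk3, Lama2, Nxph1, Igsf21, Dock11, Ppp2r2b, Irx2, C8b, Rab3c, Cryba2 and Ifih1, whose smallest differences lay between 1.19 and 2.80.

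Some genes of alpha cells were not limited to them. Etv1, an ETS transcription factor, had 302 to 437 CPM in alpha, 263 to 350 in delta, 363 to 652 in PP and 9.09 to 17.6 in beta cells. Gc, the vitamin D binding protein, had 377 to 411 CPM in alpha cells and 536 to 941 in PP cells. The PP sums rest on 30, 11, 27 and 11 cells, so their levels are coarse.

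Genes lowest in alpha cells mark the other side of the contrast. Hadh, a fatty acid oxidation enzyme known to restrain insulin release, had 23.8 to 37.0 CPM in alpha cells and 788 to 890 in beta cells. The granule protein Scg2 had 772 to 861 CPM in alpha cells and 2536 to 5944 in the other 3 types. Gstm1, Cntnap2 and Trpm3 followed, with alpha levels of 22.5 to 31.2, 44.9 to 123 and 42.5 to 67.3 CPM.

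**Figure D2:**
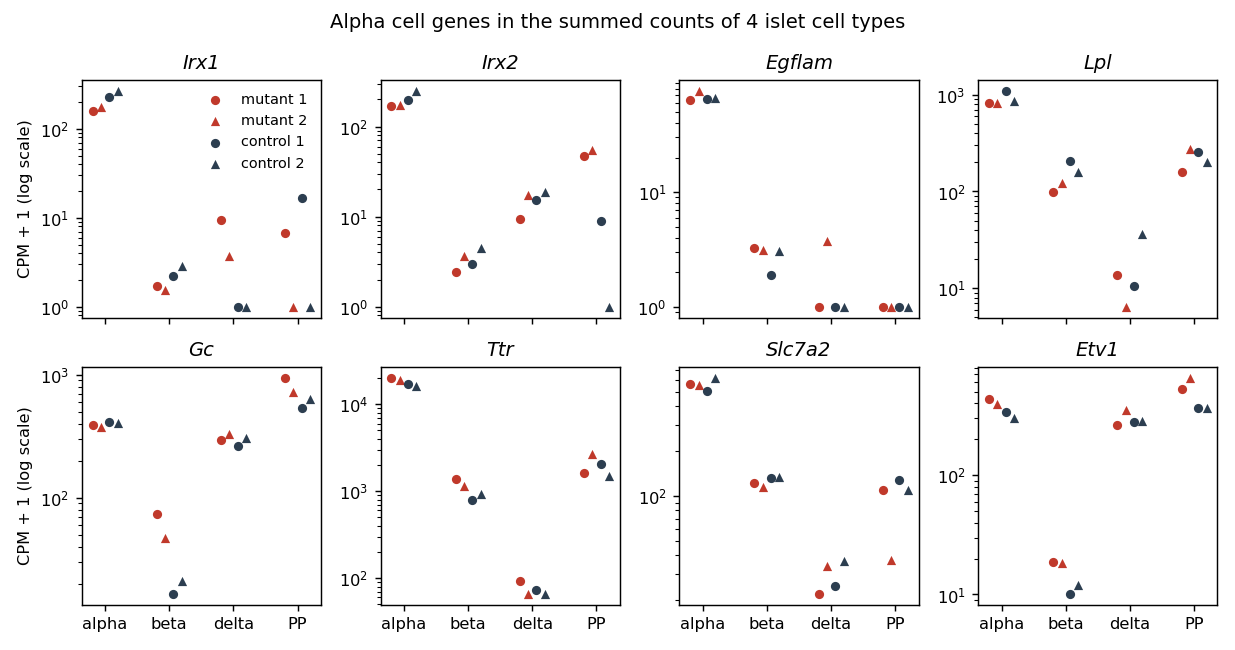
CPM plus 1 (log scale) of 8 genes in the summed counts of alpha, beta, delta and PP cells, 1 point per sample. Irx1, Egflam and Slc7a2 are highest in alpha cells among these 4 types, whereas Gc is higher in PP cells and Etv1 is shared by alpha, delta and PP cells.

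Among single alpha cells, Pyy varied most. Pyy encodes peptide YY, a peptide of PP cells that some alpha cells make. Its variance over that of counting noise ranked first of 5496 genes in the lowest of the 4 samples. Pyy took a median of 0.822%, 0.401%, 0.594% and 0.413% of a cell's UMIs in mutant 1, mutant 2, control 1 and control 2, and up to 8.72%, 11.7%, 5.604% and 4.86% in single cells. Ttr, Iapp and Gnas came next, and then Hspa1b and Hspa1a, 2 near-identical heat shock genes whose counts can be split between them. Chga, Fos, Gpx3 and Dnajb1 completed the first 10. The heat shock genes Hspa1b, Hspa1a and Dnajb1 and the immediate early gene Fos were thus among the first 10 by this measure. The measure makes no allowance for a gene's level, and abundant genes such as Ttr also ranked high.

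Alpha cells made up a larger share of the hormone-rich barcodes in both mutants than in either control, but the difference rested on mutant 2. The shares were 10.2% in mutant 1 (95% Clopper-Pearson interval 8.61 to 12.0, 132 of 1294), 14.8% in mutant 2 (13.1 to 16.6, 241 of 1632), 8.79% in control 1 (7.56 to 10.1, 169 of 1922) and 8.70% in control 2 (7.44 to 10.1, 157 of 1805). These intervals cover counting error only. Mutants exceeded controls by 3.74 percentage points on average, with a 2-sided exact permutation p of 0.333, the smallest that 2 against 2 samples can give. Without mutant 2 the difference was 1.46 points. A share can also move with the number of beta cells, of which there were 802, 912, 1344 and 1274.

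Atf4 RNA was still present in the alpha cells of the mutants, at a lower level than in the controls that did not pass the test. Atf4 (chromosome 15, 80255184 to 80257541, plus strand) stood at 245 CPM in mutant 1, 265 in mutant 2, 421 in control 1 and 316 in control 2, after scaling by trimmed means (TMM). Both mutants were below both controls. The log2 change was -0.53 ± 0.17 (SE, 2 pools per group), with an edgeR adjusted p of 0.315 and an unadjusted p of 0.0052. Leaving out control 1 moved the log2 change to -0.31.

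Atf4 was also lower in the beta cells of both mutants, but this fall did not pass the edgeR test within beta cells. It was uneven between the mutant pools. The fall in beta cells was larger than that in alpha cells, and the difference between them was tested. With both cell types scaled together, beta cells of mutant 1, mutant 2, control 1 and control 2 had 5.81, 135, 398 and 407 CPM of Atf4. Alpha cells on the same scale had 212, 231, 368 and 275 CPM. The mutant effect was 2.55 ± 0.50 log2 units (SE) higher in alpha than in beta cells, with an edgeR adjusted p of 0.0084 for the interaction. Insulin RNA in alpha cells was 2.06%, 1.60%, 2.55% and 2.36% of its level in beta cells, and these shares of the beta cell Atf4 level came to 0.114, 1.95, 8.36 and 8.43 CPM. The part of free RNA from other cells in the Atf4 values was not tested. Detection was also read in cells with at least 2000 UMIs, thinned to 2000. Atf4 was then seen in 34.7%, 40%, 54.2% and 50.0% of alpha cells of mutant 1, mutant 2, control 1 and control 2. In beta cells the shares were 1.75%, 20.8%, 41.8% and 45.8%. Endothelial or macrophage barcodes, which also express Atf4, gave 37.5%, 60%, 53.8% and 70.0%. Unthinned, and over all alpha cells with the shallower ones included, the shares were 61.4%, 61.4%, 66.9% and 68.2%.

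The pools also differed in their balance of female and male cells. Alpha cells with Xist and no Y-linked UMI made up 26.5%, 13.7%, 18.3% and 14.6% in mutant 1, mutant 2, control 1 and control 2. Those with Y-linked UMIs and no Xist made up 15.2%, 28.2%, 16.6% and 15.9%. Atf4 in the Xist cells was 291, 296, 427 and 304 CPM, and in the Y-linked cells 253, 218, 473 and 358 CPM. These rest on 104, 69, 85 and 53 Atf4 UMIs in the Xist cells and 41, 93, 72 and 56 in the Y-linked cells. Both mutants were below both controls in each set, but in the Xist cells they lay close to control 2.

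Across all 8744 genes tested in alpha cells, 19 passed an edgeR adjusted p of 0.05 (0.217%), of which 6 were higher (0.0686%) and 13 lower (0.149%) in the mutants. Ins1, a gene of the rule, was among the lower ones and is left out below, which leaves 18. With library totals in place of TMM, 14 were higher and 13 lower, and with the rule genes left out before scaling 11 were higher and 14 lower. The median log2 change of all genes was -0.01. The count rose to 85 when control 1 was left out. An unadjusted p under 0.05 was reached by 467 genes in the higher (5.34%) and 360 in the lower direction (4.12%).

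Of the 23 immediate early genes tested, 3 fell in mutant alpha cells (Ier2, Fosb and Egr1), beside 0.149% of all genes. None passed as higher, beside 0.0686% of all genes. Ier2, an early response gene (chromosome 8, 84661331 to 84662852, minus strand), had 208 and 199 CPM in the mutants and 450 and 396 CPM in the controls. The log2 change was -1.06 ± 0.15 (SE), with an adjusted p of 0.00426. Both mutants were below both controls, and the call held when any 1 of the 4 samples was left out. Fosb, a partner of Jun in the AP-1 factor (chromosome 7, 19302696 to 19310051, minus strand), had 205 and 222 CPM in the mutants and 390 and 415 CPM in the controls. It fell by 0.91 ± 0.15 on the log2 scale, with an adjusted p of 0.0129, which became 0.110 without mutant 1 and 0.0806 without control 2. Egr1, a zinc finger factor of the same response, had 481 and 503 CPM in the mutants and 777 and 823 CPM in the controls. It fell by 0.70 ± 0.14 on the log2 scale, with an adjusted p of 0.0384 that did not pass without mutant 1 (0.204), mutant 2 (0.116) or control 2 (0.170).

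Other members leaned the same way without passing. Fos, the founding member of AP-1, had 1501 and 1537 CPM in the mutants and 2244 and 2236 CPM in the controls, with a log2 change of -0.56 and an adjusted p of 0.0694. Zfp36, which destabilises mRNAs, had 297 and 241 against 391.5 and 542 CPM (log2 change -0.80, adjusted p 0.0729). Of the 23 genes tested, 12 had an unadjusted p under 0.05 in the lower and 1, Gadd45b, in the higher direction, beside the 4.12% and 5.34% of all genes. Both mutants lay below both controls for 13 (20.2% of all genes) and above them for 4 (19.7% of all genes). The median log2 change was -0.56, beside -0.01 for all genes and -0.33 for the same genes in beta cells. Nr4a1 was the only 1 of the 23 to pass the interaction test between alpha and beta cells. Nr4a1, an orphan nuclear receptor, had 66.5, 106, 209 and 98.9 CPM in alpha cells and 104, 71.5, 52.5 and 48.2 CPM in beta cells of mutant 1, mutant 2, control 1 and control 2, a difference of effects of -1.53 with an adjusted p of 0.00253.

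Of the 15 heat shock genes tested, 3 rose in mutant alpha cells (Hsp90aa1, Hspa1b and Hspb1), beside 0.0686% of all genes. None passed as lower, beside 0.149% of all genes. Hsp90aa1, the inducible cytosolic Hsp90 (chromosome 12, 110690605 to 110702728, minus strand), had 855 and 729 CPM in the mutants and 477 and 389 CPM in the controls. It rose by 0.87 ± 0.15 on the log2 scale (SE), with an adjusted p of 0.0168. Hspa1b, an inducible Hsp70 whose promoter is printed above, had 738 and 784 CPM in the mutants and 471 and 365 CPM in the controls. It rose by 0.86 ± 0.15, with an adjusted p of 0.0169. Hspb1, a small heat shock protein whose printed promoter held 2 matches to GAANNTTC, had 74.6 and 63.5 CPM in the mutants and 22.4 and 27.8 CPM in the controls. It rose by 1.44 ± 0.28, with an adjusted p of 0.0375. For all 3 genes both mutants lay above both controls.

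These calls were less firm than that of Ier2. Adjusted p was 0.115 for Hsp90aa1 without mutant 1 and 0.138 without control 2, 0.0759 for Hspa1b without mutant 2 and 0.165 without control 2, and 0.110 for Hspb1 without mutant 1 and 0.0618 without control 2. Hspb1 counts were few, with 67, 72, 16 and 22 UMIs, and 81.2% of those in control 1 lay in 3 cells. Of the 15 genes, 11 had an unadjusted p under 0.05 in the higher direction (5.34% of all genes) and none in the lower (4.12% of all genes), and both mutants lay above both controls for 12 (19.7% of all genes). Hsph1, Bag3, Chordc1, Hspa1a and Hsp90ab1 were among the 11, with log2 changes of 0.64, 1.11, 1.06, 0.57 and 0.44 and adjusted p values of 0.0980 to 0.293. Dnajb1 and Hspd1 had log2 changes of -0.34 and -0.18.

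The heat shock change in alpha cells was compared with that in beta cells. The median over the 15 genes was 0.57 in alpha and 0.08 in beta cells. Hspa1b differed between the cell types by 0.79 ± 0.14 log2 units, with an adjusted p of 0.00253 for the interaction, and was at 489 and 465 CPM in mutant and 489 and 415 CPM in control beta cells. Its near-identical neighbour Hspa1a differed by 0.77, with an adjusted p of 0.00736. The other 13 did not pass. Among alpha cells deep enough to be thinned, Hspa1b was seen in 59.5%, 55.8%, 35.9% and 32.3% in mutant 1, mutant 2, control 1 and control 2. Without thinning, and over all alpha cells, the shares were 71.2%, 63.5%, 45.0% and 40.8%. Summed over the list, heat shock genes had 5972, 5635, 4435 and 3962 CPM in alpha cells and 7580, 7101, 5483 and 4992 CPM in PP cells. They had 3663, 3481, 3204 and 3173 CPM in beta cells, and in these 3 types both mutants lay above both controls. In delta cells the sums were 6293, 5863, 6518 and 6060 CPM, and the groups overlapped. In the endothelial or macrophage barcodes the sums were 7497, 7959, 7034 and 5550 CPM.

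**Figure D3:**
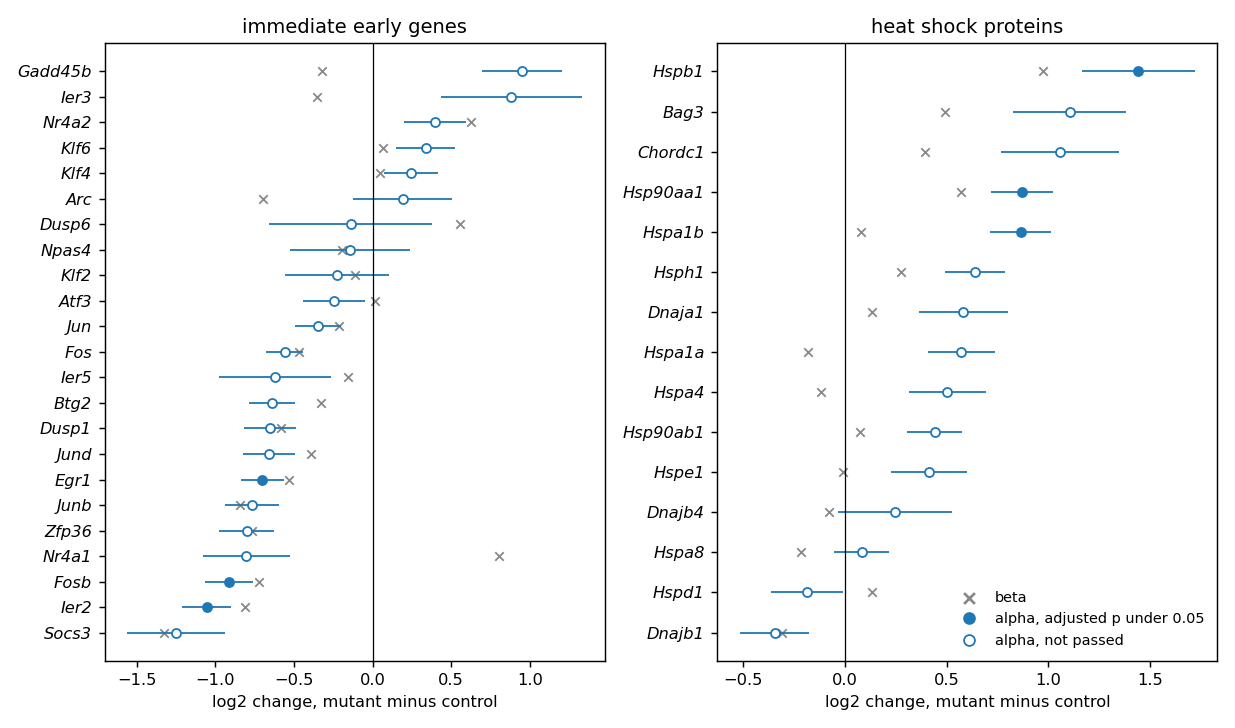
Log2 change (mutant minus control) of the 23 immediate early genes and 15 heat shock genes tested in alpha cells, as circles with bars of 1 standard error, filled where the adjusted p was under 0.05, and of the same genes in beta cells as crosses. Most immediate early genes lie left of 0 in both cell types, while most heat shock genes lie further right in alpha than in beta cells.

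RNAs of digestive enzymes were lower in mutant alpha cells, and in other cells too. Ctrb1, chymotrypsinogen B1, had 10.0 and 15.9 CPM in the mutants and 61.5 and 65.7 CPM in the controls, a log2 change of -2.25 ± 0.31 (SE) with an adjusted p of 0.00274. Amy2a5, a pancreatic amylase nearly identical to Amy2a3, so that reads can be split between them, had 23.4 and 21.2 against 110 and 86.0 CPM, a log2 change of -2.14 ± 0.26 with an adjusted p of 0.00108. Amy2a3, Cela1, Prss2, Try4 and Try5, below the expression level set for naming genes and chosen here after their values were seen, also passed, with log2 changes of -2.41 to -3.73. Try4 and Try5 are also close copies of each other. All these genes belong to acinar cells, which surround the islets.

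Acinar markers summed to 50.8, 68.0, 274 and 336 CPM in the alpha cells of mutant 1, mutant 2, control 1 and control 2. In the endothelial or macrophage barcodes they summed to 114, 147, 422 and 569 CPM, and in beta cells to 49.5, 68.6, 181 and 291 CPM. Alpha cells were thus below the background level in every library, and these RNAs are not read as alpha cell expression. When the Gcg limit was lowered to 5%, which added 14 barcodes, the log2 changes of Ctrb1 and Amy2a5 were -0.78 and -0.55 and did not pass.

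Endothelial RNA moved the other way and lay in a few barcodes. The 8 endothelial markers, all detected, summed to 100 CPM in mutant 1, 189 in mutant 2, 52.9 in control 1 and 38.7 in control 2. Of the 6 tested, 5 had an unadjusted p under 0.05 in the higher direction, beside 5.34% of all genes. None passed, beside 0.0686% of all genes in that direction. All 46 UMIs of Kdr, the VEGF receptor 2, in mutant 2 lay in 2 cells. Macrophage markers summed to 86.1, 167, 133 and 114 CPM. Apoe, a lipid carrier abundant in macrophages, rose by 1.95 ± 0.33 on the log2 scale with an adjusted p of 0.0129, from 14.0 and 11.4 CPM in the controls to 46.7 and 51.2 CPM in the mutants. Its 3 highest cells held 92.9%, 93.1%, 90% and 100% of its UMIs in mutant 1, mutant 2, control 1 and control 2. When alpha cells with 5 or more UMIs of endothelial, macrophage, stellate and B cell markers together were left out, an alternative added after the data had been seen, 127, 237, 165 and 150 cells remained and 4 genes passed in the higher and 13 in the lower direction. Ier2, Fosb, Hsp90aa1 and Hspa1b were among these, whereas Hspb1 (adjusted p 0.0757), Egr1 (0.0542) and Zc3h12b (0.0517) were not.

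**Figure D4:**
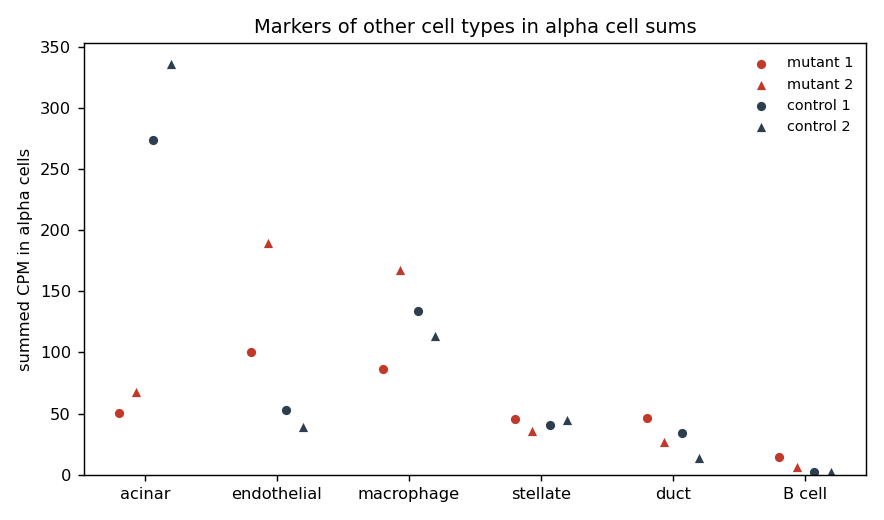
Summed CPM of the markers of 6 other cell types in the alpha cells of each sample. Acinar markers are lower in both mutants (50.8 and 68.0 against 274 and 336 CPM), and endothelial markers are higher in both (100 and 189 against 52.9 and 38.7 CPM).

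The remaining named genes belonged to none of these groups. Zc3h12b, a putative RNase of the regnase family, had 46.7 and 47.7 CPM in the mutants and 9.79 and 17.7 CPM in the controls, a rise of 1.75 ± 0.33 on the log2 scale with an adjusted p of 0.0375. That p was 0.0934 without mutant 1 and 0.113 without mutant 2. Klhl29, a Kelch-like protein, had 90.1 and 164 against 58.7 and 39.2 CPM, a rise of 1.40 ± 0.28 with an adjusted p of 0.0466. It moved to 0.89 without mutant 2, with an adjusted p of 0.310, and its adjusted p was 0.200 without control 2. Gm17660 had 46.7 and 22.9 against 122 and 126 CPM, a fall of 1.87 ± 0.27 with an adjusted p of 0.00395, and passed whichever 1 sample was left out. Zim1, an imprinted zinc finger gene, had 70.1 and 60.9 against 127 and 137 CPM, a fall of 1.02 ± 0.20 with an adjusted p of 0.0386. It did not pass without mutant 1 (0.0796), mutant 2 (0.219) or control 2 (0.170).

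Further genes that did not pass but whose groups did not overlap were named by the lowest unadjusted p. Ptprn2, a tyrosine phosphatase-like protein of secretory granules, had 1461 and 1572 CPM in the mutants and 934 and 1039 CPM in the controls, with an adjusted p of 0.0610. Vamp2, the vesicle SNARE of exocytosis, had 125 and 131 against 225 and 205 CPM, with an adjusted p of 0.0893. Zeb1, Sdk1 and Dync1i1 had log2 changes of 0.91, 1.14 and 1.37 and adjusted p values of 0.0676, 0.0707 and 0.0789. Sdk1 was uneven between the mutants, at 496 and 244 CPM against 182 and 153 CPM.

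No transcription factor of the alpha cell list passed, beside 0.217% of all genes. Of 19 tested, 3 had an unadjusted p under 0.05 in each direction, beside 5.34% of all genes in the higher and 4.12% in the lower one. The median log2 change was -0.17 in alpha cells, beside -0.27 for the same genes in beta cells. Irx1 came nearest, at 159 and 181 CPM in the mutants and 243 and 271 CPM in the controls after TMM scaling, with a log2 change of -0.59 ± 0.16 and an adjusted p of 0.215. Irx2 had 168 and 175 against 210 and 252 CPM, with a log2 change of -0.43 and an adjusted p of 0.423. For both, the mutants lay below the controls.

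A further 15 factors of the list did not pass either. Isl1 ranged from 206 to 302 CPM, Pax6 from 199 to 296, Nkx2-2 from 107 to 148, Neurod1 from 164 to 221, Rfx6 from 169 to 227, Foxa2 from 119 to 173 and Smarca1 from 102 to 157. Meis2 ranged from 393 to 481 CPM, Etv1 from 306 to 441, Foxp1 from 247 to 347, Rfx3 from 61.9 to 104, Foxp2 from 36.4 to 80.1, Foxp4 from 46.1 to 67.9, Insm1 from 55.6 to 81.2 and Myt1 from 64.4 to 82.2. Their log2 changes lay between -0.38 for Smarca1 and 0.71 for Foxp2, whose adjusted p was 0.423.

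Genes that Atf4 is known to activate showed no passing change in alpha cells. Of 40 listed, 20 were tested and none passed, beside 0.217% of all genes. An unadjusted p under 0.05 was reached by 1 in the higher and 2 in the lower direction, beside 5.34% and 4.12% of all genes. The median log2 change was -0.11, beside -0.38 for the same genes in beta cells. In beta cells 34 of the list were tested and none passed either. Ddit3, the stress factor CHOP, had 62.3 and 37.9 CPM in the mutants and 22.4 and 16.4 CPM in the controls (adjusted p 0.134). Slc7a5, a transporter of large neutral amino acids, had 20.03 and 16.8 against 39.2 and 35.4 CPM (adjusted p 0.309), and Asns, asparagine synthetase, had 35.6 and 34.4 against 39.2 and 25.3 CPM. The 19 tRNA synthetases tested had a median of 0.00 and no unadjusted p under 0.05. Of the genes around Atf4, Syngr1, Mgat3 and Mief1 were tested and had log2 changes of 1.13, 0.34 and 0.34, none of which passed.

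No target of p53, the factor that halts the cell cycle after damage, passed in alpha cells. Of 15 tested in alpha cells none passed, beside 0.217% of all genes. In beta cells 23 of the list were tested and 5 passed as higher, beside 0.253% of all genes tested there. For the genes tested in alpha cells the median log2 change was 0.00, beside 1.06 for the same genes in beta cells. Cdkn1a, the cell cycle inhibitor p21, had 53.04, 37.7, 50.2 and 33.0 CPM in alpha cells and 511, 306, 17.4 and 28.5 CPM in beta cells of mutant 1, mutant 2, control 1 and control 2. The difference of effects was -4.00 ± 0.31 log2 units, with an adjusted p of 4.93e-10. Ccng1, cyclin G1, had 59.8, 46.2, 70.9 and 59.4 CPM in alpha cells and 362, 224, 56.2 and 57.4 CPM in beta cells, a difference of -2.64 ± 0.23 with an adjusted p of 3.50e-09. Groups of alpha cell values overlapped for both genes, whereas in beta cells both mutants lay far above both controls. The difference of effects passed for 37 of 13361 genes (0.277%), of which 15 were higher (0.112%) and 22 lower (0.165%) in alpha than in beta cells. That count was 83 without mutant 2.

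**Figure D5:**
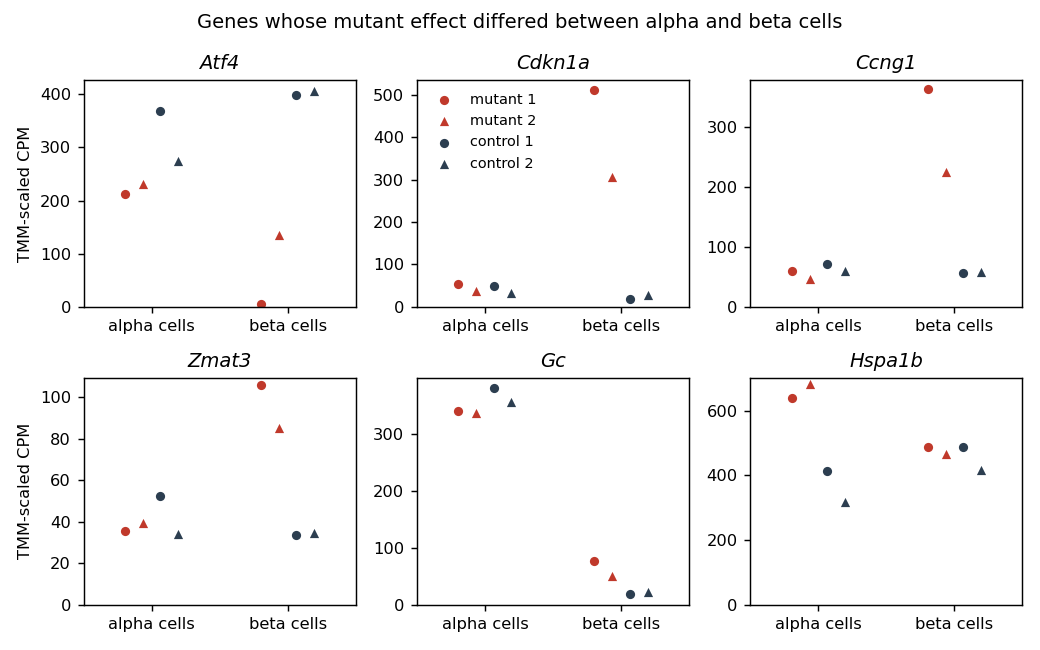
TMM-scaled CPM of 6 genes in alpha and beta cells, 1 point per sample, with both cell types scaled together. Atf4 is lower in mutant beta cells (5.81 and 135 against 398 and 407 CPM) and Cdkn1a, Ccng1, Zmat3 and Gc are higher there, while Hspa1b is higher in mutant alpha cells.

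The remaining lists gave no gene that passed in alpha cells, beside 0.217% of all genes. Among 29 genes of glucagon processing and granules the median log2 change was -0.07. Slc30a8, the zinc transporter of granules, had 1294 and 1167 against 838 and 890 CPM, with an adjusted p of 0.145. The 83 ribosomal protein genes had a median of -0.20, beside -0.34 in beta cells. Both mutants lay below both controls for 54 (20.2% of all genes). An unadjusted p under 0.05 in the lower direction was reached by 15 (4.12% of all genes). Medians were 0.03 for 12 amino acid transporters, -0.06 for 19 genes of electrical activity and fuel use, 0.01 for 15 receptors, -0.12 for 24 endoplasmic reticulum chaperones and -0.08 for 11 beta cell genes. They were -0.14 for 18 metallothioneins and antioxidant genes, -0.08 for 13 interferon and MHC class I genes, 0.09 for 5 cell cycle genes, 0.25 for 4 sex-linked genes, 0.01 for 7 islet peptides and -0.02 for 76 nuclear respiratory chain genes. Slc38a5, a glutamine transporter, had 194 and 123 CPM in the mutants and 103 and 104 CPM in the controls, with an adjusted p of 0.394.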

How the data were processed

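Each of the 4 deposited matrices holds whole-number UMI counts per gene symbol and barcode, used as the authors deposited them. The submitters' processing notes name the build mm10 and Seurat. The aligner and counter are not given in the sources used here. The labels' protocols give fractions of some 3500 captured cells. The libraries held 2352 to 3272 barcodes and 13706563 to 17655893 UMIs, and 6995 barcodes passed the gene and mitochondrial limits. No doublet caller was run, so doublets may remain.

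The members and gene lists were chosen with earlier results of these data known. Counts of alpha cells were summed per sample and tested with edgeR 4.0.16 (quasi-likelihood F test, filterByExpr, TMM, R 4.3.3), with Benjamini-Hochberg adjustment over all genes and a threshold of 0.05. The test was checked on simulated data. CPM are counts per 1000000 of the sum. The interaction test used alpha and beta sums with the sample as a block. Beta cells had at least 20% insulin and under 3% each of Gcg, Sst and Ppy. Delta and PP cells had at least 10% of Sst or Ppy, and background barcodes under 10% hormone RNA and at least 5 UMIs of endothelial or of macrophage markers. Hormone-rich barcodes had at least 10% of any of the 4 hormones. DESeq2 1.42.0 and limma-voom (limma 3.58.1) were alternatives.

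Named genes were the 10 largest changes each way that passed at an average log2 CPM of at least 5 without overlap of the groups, filled to 10 by the lowest unadjusted p, up to 3 of each list, all alpha regulators and Atf4 neighbours, 6 each way for the interaction, and the 20 genes that stood apart most in alpha cells. Positions are from GENCODE for GRCm38 and were found for 97.5% of the genes tested. Some genes that this rule names are not reported here. The replicate numbers of the titles were not used to pair the samples in the main fit.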

Additional observations from a re-analysis of the deposited data

Results flagged for a closer look

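The mutant effect differed between alpha and beta cells by the interaction test for 12 named genes. It was higher in alpha than in beta cells, as a log2 difference of effects, for Atf4 (2.55), Grb10 (1.16), Rasd1 (1.11), Rbp4 (1.02), Rpl22l1 (0.86) and Hspa1b (0.79). It was lower for Cdkn1a (-4.00), A330008L17Rik (-2.83), Ccng1 (-2.64), Dapl1 (-1.90), Gc (-1.71) and Zmat3 (-1.65).

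Values of both cell types, scaled together, stood as follows in mutants 1 and 2 and then controls 1 and 2. Rbp4, the retinol binding protein, had 731 and 723 CPM in mutant and 658 and 789 CPM in control alpha cells, and 35.7 and 67.8 against 103 and 99.7 CPM in beta cells. Gc had 340 and 337 against 380 and 356 CPM in alpha cells and 76.3 and 51.0 against 18.8 and 22.6 CPM in beta cells. Zmat3, an RNA-binding p53 target, had 35.7 and 39.2 against 52.6 and 34.1 CPM in alpha cells and 106 and 85.1 against 33.5 and 34.9 CPM in beta cells. Grb10, an adaptor of insulin receptor signalling, had 389 and 349 against 281 and 381 CPM in alpha cells and 10.9 and 28.7 against 41.3 and 36.3 CPM in beta cells. Dapl1 was uneven between the mutant beta pools, at 301 and 72.3 CPM.

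Leaving out 1 sample ended several of these calls. Without mutant 1 the log2 differences of Grb10, Rasd1, Rbp4, Rpl22l1 and Dapl1 were 0.49, 0.66, 0.57, 0.69 and -1.18 and did not pass. Without control 1, Rpl22l1 (0.74), Dapl1 (-1.21) and Zmat3 (-1.29) did not pass, and without control 2, Rasd1 (0.81) and A330008L17Rik (-1.78) did not. Atf4, Hspa1b, Cdkn1a, Ccng1 and Gc passed in all 4 of these fits.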

How the results depend on the processing

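The count of 19 genes moved to 11 with limma-voom, 108 with no filter on low counts, 30 with at least 1000 genes per cell and 2 in alpha cells with no UMI of endothelial, macrophage, stellate or B cell markers, of which there were 64, 138, 83 and 81. It was 14 with DESeq2, 6 of them among the 19. It ranged from 17 to 85 when 1 sample was left out, with 85 without control 1, and 7 to 18 of the 19 were called in those fits. In the Xist cells and in the Y-linked cells edgeR called 0 genes, with 305 and 210 genes at an unadjusted p under 0.05, from 23 to 35 and 20 to 68 cells per sample. The difference of effects ranged from 39 to 83 genes, with 83 without mutant 2. Atf4 in alpha cells ranged from -0.31 to -0.85 and passed in no fit (adjusted p 0.116 to 0.755). The share of alpha cells ranged from 1.46 to 6.02 points higher in the mutants when 1 sample was left out. The only named gene whose direction turned was Fos, at 0.028 in the Y-linked cells. The cause of these moves was not tested.

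A replicate block by the number of the titles gave 62 genes, and one by the library name prefix, whose meaning the labels do not give, gave 64. Deviations of same-numbered samples correlated at 0.00703 over 5527 genes in alpha cells and at -0.151 over 4707 genes in beta cells. With 2 samples per group, the correlation by prefix is the same value with its sign turned. It is therefore not a separate observation. No label says that either marks a shared batch, and neither was used in the main fit.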

Other observations

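Immediate early RNA was above the beta cell level in alpha, PP and delta cells of all 4 pools. The 29 genes of the list summed to 5497, 5375, 7402 and 8089 CPM in alpha cells of mutant 1, mutant 2, control 1 and control 2, to 2380, 2317, 2618 and 3255 CPM in beta cells, to 6656, 6576, 8181 and 7818 CPM in PP cells, to 4162, 3581, 4557 and 5035 CPM in delta cells and to 8237, 14248, 11564 and 13654 CPM in the endothelial or macrophage barcodes. Slc38a5, a glutamine transporter, had 192, 120, 97.8 and 102 CPM in alpha cells and at most 47.7 CPM in the other hormone cells.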
